A study of Drosophila melanogaster with 18 samples.

Results

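The *timeless* gene (*tim*) of *Drosophila melanogaster* was followed through its 2 alternative 3′ ends in fly heads from flies kept at 1 of 3 temperatures (18°C, 25°C, 29°C). All rows of the deposited expression table that carry the gene symbol *tim* were taken, 7 of 29561, and rows with the same values were treated as 1 end. This left 2 distinct ends: a long end shared by 5 rows, in which the isoforms *tim-cold*, *tim-M* and *tim-L* stay together (*tim-L/M/cold*), and a short end shared by 2 rows, called *tim-sc* (short and cold). Heads of the wild-type strain Canton-S were collected every 4 h, at 6 times from ZT3 to ZT23, where ZT counts hours after lights on, from flies entrained to days of 12 h of light and 12 h of darkness at 1 of the 3 temperatures. Each temperature and time is represented by 1 library of polyadenylated RNA, sequenced from its 3′ ends, 18 libraries in all. The labels give no age and no sex of the flies. Within a temperature the 6 times were treated as replicates, so p-values measure the spread between these libraries, which includes the daily cycle.

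In the fly clock, the transcription factors CLOCK and CYCLE activate *period* (*per*) and *tim*, and the PER and TIM proteins then enter the nucleus together and repress their own activators. TIM protects PER from degradation and is itself destroyed in the light through Cryptochrome, which makes it the point at which light resets the clock. *tim* mRNA normally accumulates around dusk and in the early night. Cutting and polyadenylating a transcript inside an intron, as in *tim-sc*, yields an mRNA that lacks all downstream exons and encodes a truncated protein.

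Both ends lie on the minus strand of chromosome arm 2L, in the dm3 build used by the table. The rows of *tim-L/M/cold* span 3493986 to 3507218 or to 3508119, and those of *tim-sc* span 3501048 to 3507218 or to 3507604. No row of another gene overlaps them, and the nearest, *CG31954* and *CG15414*, are 938 and 2914 bases away. In the BDGP6 annotation, where *tim* transcripts start and stop at the same numbers on 2L, the short end falls 124 bases into an intron of 380 bases between exons 9 and 10 of the 16-exon transcript *tim-RB*. It is 7062 bases upstream of the long end. The stop codon of the short transcripts begins right at the start of this intron (3501168 to 3501170). The 2 annotated short transcripts have 9 exons, encode 890 and 891 residues and carry a 3′ UTR of 120 bases. The 8 long transcripts have 15 to 17 exons, encode 1099 to 1421 residues and have 3′ UTRs of 533 to 1571 bases.

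**Figure D1:**
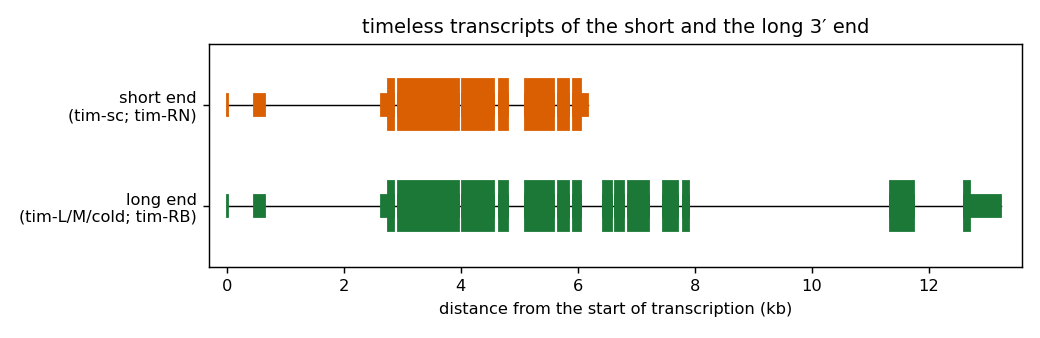
Transcripts *tim-RN* (short end) and *tim-RB* (long end), drawn to scale as distance in kb from the start of transcription. Thin boxes are untranslated exons, thick boxes are coding exons and lines are introns. The short transcript stops 7062 bases before the long one, and up to that point the coding exons lie at the same places except for a few bases at exon edges.

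The values are a signal, which is a read number divided by 1 constant per library. Summed over rows, the signal ran from 3.05e+06 (ZT15 at 25°C) to 4.00e+06 (ZT23 at 18°C), so comparisons between libraries rest on the deposited scaling. Dividing by the worth of 1 read gave whole reads for both *tim* ends in every library. The libraries hold 1.24 to 6.62 M estimated reads, with 3.27 ± 0.50 M at 18°C, 2.92 ± 1.05 M at 25°C and 3.99 ± 1.57 M at 29°C (SD, n = 6), and 3 reads correspond to a signal of 1.54 to 7.36. The smallest library is that of ZT15 at 25°C. Intervals below are 95% counting intervals (exact Poisson or Clopper-Pearson), and since amplified reads are not independent molecules they cover counting error only. Markers of photoreceptors (5 of 5), neurons (5 of 5) and glia (5 of 5) were above 3 reads in every library. In whole heads, fewer cells of a type and less RNA per cell cannot be told apart.

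The short end was detected in all 6 libraries at 18°C and was scarce at the warmer temperatures. The *tim-sc* signal at ZT3, ZT7, ZT11, ZT15, ZT19 and ZT23 was 27.11, 34.3, 60.7, 109, 41.7 and 5.50 at 18°C. It was 1.09, 5.09, 9.44, 2.45, 12.4 and 0 at 25°C, and 0, 0, 0, 0, 1.48 and 1.03 at 29°C. All 18°C libraries except that of ZT23 were above every library of the other temperatures, and the ZT23 value, which rests on 4 reads, lay inside the 25°C range. At 25°C, 3 of 6 libraries held 3 reads or fewer, and at 29°C all 6 did, with 4 of them at 0.

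*tim-sc* was higher in the 18°C library than in the 25°C library at every time point. The ratio was 6.74 at ZT7 (2.69 to 20.2), 6.44 at ZT11 (3.44 to 13.12) and 3.35 at ZT19 (1.62 to 7.81). At ZT3 and ZT15 the 25°C library held 1 read, and the ratios of 25.0 (4.08 to 1025) and 44.6 (7.84 to 1779) have correspondingly wide intervals. Across the day the log2 change, on the log2(signal + 1) scale, was 3.04 ± 0.71 (SE; limma, adjusted p = 0.00426 over 8846 tested rows, of which 10.8% were called between these temperatures and 6.68% were higher at 18°C). The size of this change depends on the value added before the logarithm, with 3.55 for an added 0.25 and 2.30 for an added 4. *tim-sc* only just passed the filter on low values, through 5 libraries at 18°C and 1 at 25°C, so its change is better read from the reads themselves.

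Between the warmer temperatures the short end was near the limit of these libraries. At ZT11, 0 of the reads at 29°C and 12 of the reads at 25°C came from *tim-sc*, which limits the ratio to at most 0.296 by counting error. At ZT19 the ratio was 0.119 (0.0125 to 0.574), from 2 reads at 29°C and 9 at 25°C. At ZT23 the order was the other way, with 2 reads at 29°C and 0 at 25°C. The log2 change of -1.71 ± 0.71 did not pass (limma, adjusted p = 0.247; 2.06% of rows were called). Against 18°C, *tim-sc* at 29°C fell by 4.75 on the log2 scale (SE 0.71; limma, adjusted p = 8.42e-06; 23.1% of rows were called and 12.6% were lower), a fit that again depends on the added value (-6.23 with 0.25, -3.17 with 4). The row was tested only because 5 libraries at 18°C and 1 at 25°C reached the filter value, and every 29°C library held 3 reads or fewer. This p-value is thus not independent of the high level at 18°C. The means were ordered 18°C, 25°C, 29°C (46.5 ± 35.8, 5.08 ± 4.93 and 0.418 ± 0.663; SD, n = 6 each). The limma interval of the change between the neighbours 29°C and 25°C ran from -3.17 to -0.25 (unadjusted p = 0.0231), so it was the adjustment over all rows that it did not pass.

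**Figure D2:**
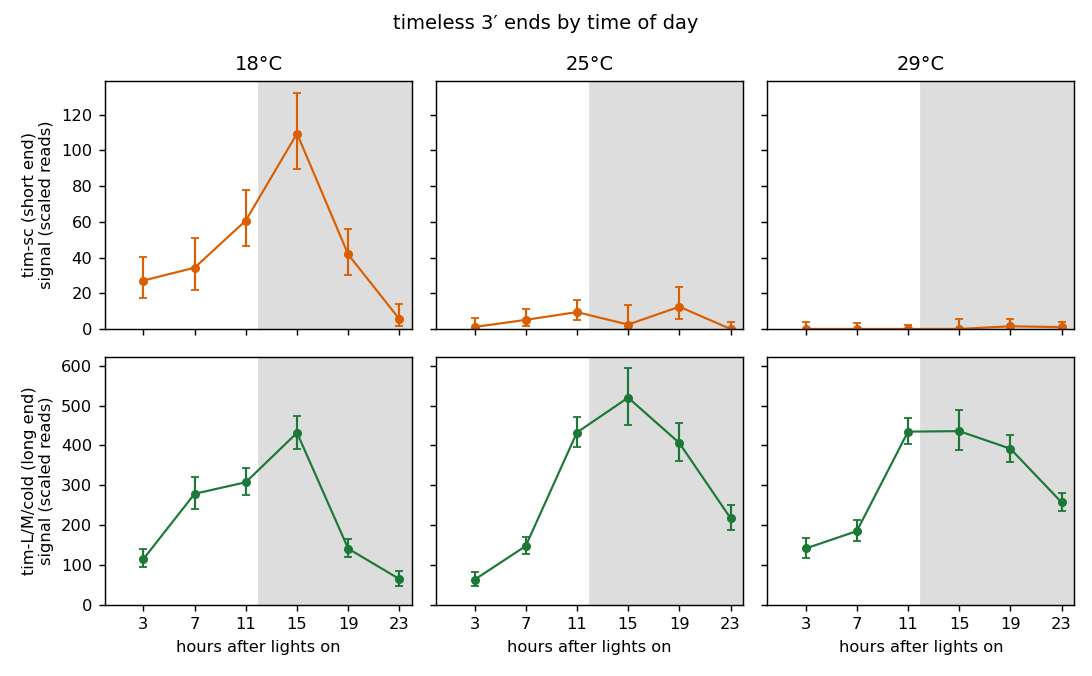
Signal of *tim-sc* (upper row) and *tim-L/M/cold* (lower row) against hours after lights on at 18, 25 and 29°C. Points are single libraries, bars are 95% Poisson counting intervals and grey marks darkness. *tim-sc* reached 109 at ZT15 at 18°C and stayed at or below 12.4 at 25°C and 1.48 at 29°C, whereas *tim-L/M/cold* peaked at 432 to 520 at each temperature.

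The long end carried most of the *tim* signal at each temperature and no change in its daily level was called. At ZT3, ZT7, ZT11, ZT15, ZT19 and ZT23 the *tim-L/M/cold* signal was 115, 279, 308, 432, 141 and 64.6 at 18°C. At 25°C it was 63.0, 147, 432, 520, 406 and 218, and at 29°C it was 141, 185, 435, 436, 392 and 257. The ranges of the 3 temperatures overlap. The log2 change was -0.37 at 18°C against 25°C (95% interval -1.24 to 0.49; limma, adjusted p = 0.650), 0.24 at 29°C against 25°C (-0.63 to 1.104; adjusted p = 0.857) and 0.61 at 29°C against 18°C (-0.26 to 1.48; adjusted p = 0.335). In this fit, whose spread includes the daily cycle, the intervals reach beyond a doubling or a halving in at least 1 direction. It therefore cannot tell changes of that size from none. Without the ZT3 library of 25°C, the change at 29°C against 25°C was -0.14. With the time point as a block the SE was 0.26 instead of 0.42, and no change was called. The adjusted p was then 0.392, 0.737 and 0.0877 in the same order (limma), the last with an unadjusted p of 0.0250.

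Hour by hour, the ratio of the long end between temperatures varied with the time of day. Early in the light phase the 18°C library was above the 25°C library, by 1.82 times at ZT3 (1.31 to 2.56) and 1.89 times at ZT7 (1.53 to 2.33). From ZT11 on it was below, at 0.711 (0.617 to 0.819), 0.830 at ZT15 (0.702 to 0.984), 0.347 at ZT19 (0.283 to 0.423) and 0.297 at ZT23 (0.211 to 0.410). No counting interval includes 1, but each ratio compares 1 library with 1 library and carries no biological error, and the fitted rhythms were not called different between the temperatures (limma, adjusted p = 0.251). At 29°C against 25°C the ratio was 2.24 at ZT3 (1.64 to 3.11) and 1.25 at ZT7 (1.02 to 1.55), and from ZT11 to ZT23 it lay between 0.838 and 1.18 with intervals that include 1. At 29°C against 18°C the ratio was 0.664 at ZT7 (0.541 to 0.814) and 1.41 at ZT11 (1.23 to 1.62). The intervals at ZT3 and ZT15 include 1. The late night stood out, with 2.78 at ZT19 (2.32 to 3.35) and 3.98 at ZT23 (2.95 to 5.49). The night decline is also seen within a temperature: at ZT19 the long end was at 32.6% of its own highest value at 18°C, 78.1% at 25°C and 89.9% at 29°C, and at ZT23 at 14.97%, 41.8% and 59.0%.

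The ratio of the 2 ends is formed within a library, so it does not depend on how libraries were scaled. Expressed as *tim-sc* reads per 100 *tim-L/M/cold* reads, it was 23.6, 12.3, 19.7, 25.4, 29.6 and 8.51 from ZT3 to ZT23 at 18°C. It was 1.72, 3.45, 2.18, 0.472, 3.06 and 0 at 25°C, and 0, 0, 0, 0, 0.377 and 0.401 at 29°C. The lowest 18°C library, at 8.51, was above the highest 25°C library, at 3.45, so the point values of these temperatures did not overlap. Their counting intervals did. That lowest value, at ZT23, rests on 4 reads beside 47 (2.23 to 23.3), and the interval of ZT3 at 25°C reached 9.99. The mean ratio was 19.9% ± 8.1 at 18°C and 1.81% ± 1.38 at 25°C (SD, n = 6 each), a difference of 18.0 percentage points that was seen at 6 of 6 time points (exact two-sided permutation p = 0.00216, the smallest that 924 arrangements allow, and 0.00325 adjusted over the 3 temperature comparisons). At 29°C the mean was 0.130% ± 0.201, which was 19.7 points lower than at 18°C, lower at 6 of 6 time points (exact permutation p = 0.00216, adjusted 0.00325), and 1.68 points lower than at 25°C, lower at 5 of 6 (exact permutation p = 0.0173). The last comparison had an exact p of 0.0625 when temperatures were exchanged only within time points, and it rests on 4 against 29 *tim-sc* reads.

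Summed over the 6 libraries of a temperature, 267 *tim-sc* reads stood beside 1236 *tim-L/M/cold* reads at 18°C, or 21.6% (18.9 to 24.7). At 25°C 29 reads stood beside 1485, or 1.95% (1.30 to 2.82), and at 29°C 4 stood beside 2320, or 0.172% (0.0469 to 0.442). The 29°C libraries hold the most *tim-L/M/cold* reads and the fewest *tim-sc* reads. Among the 18°C libraries the ratio was lowest at ZT23 and ZT7 and highest at ZT19 and ZT15. These ratios differed by more than counting error if reads are taken as independent (chi-square test between libraries, 16.6 with 5 degrees of freedom, p = 0.00526). The pooled 18°C interval is therefore too narrow for the spread between libraries. Each hour is 1 library, and the spread of the ratio over the hours was not tested against the spread between libraries of the same hour.

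**Figure D3:**
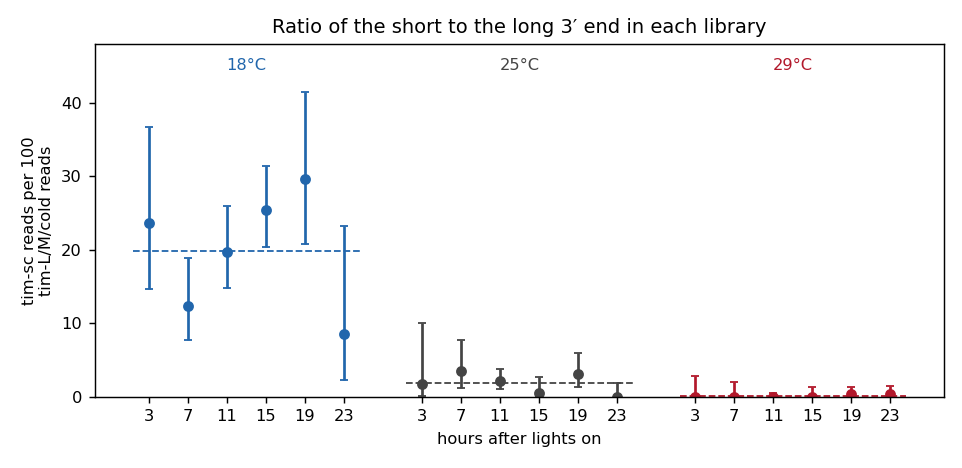
*tim-sc* reads per 100 *tim-L/M/cold* reads in each library, by hours after lights on within each temperature. Points are libraries, bars are 95% Clopper-Pearson counting intervals and dashed lines are the mean of 6 libraries (19.9%, 1.81% and 0.130%). All 18°C points lie above all 25°C and 29°C points.

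Summed marker genes of some cell types also moved with temperature, though not every gene of a list followed its sum. The summed signal of 6 fat body markers, among them the genes of the yolk proteins, ranged from 313917 to 761208 at 18°C, from 148657 to 281485 at 25°C and from 102704 to 206144 at 29°C, with *Fbp1* at 0 in 8 of 18 libraries. The sum of 5 photoreceptor markers ran the other way, from 21407 to 26684 at 18°C, 32811 to 36202 at 25°C and 41852 to 58872 at 29°C. The glial sum was 4193 to 5095 at 18°C, 3064 to 4206 at 25°C and 2968 to 3504 at 29°C, and the neuronal sum was 740 to 1096, 1056 to 1332 and 1024 to 1368 at 18, 25 and 29°C. Within the glial list *repo* averaged 65.3, 65.3 and 67.5 and *moody* 95.5, 104 and 113 at 18, 25 and 29°C, while *Gs2*, which makes up most of the sum, averaged 3175, 2591 and 2056. Among the photoreceptor genes *inaD* averaged 1244, 1403 and 1309, while the rhodopsin gene *ninaE* averaged 17919, 26327 and 38640. The part of these genes in the *tim* ratio was not tested.

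Unequal change of the 3′ ends of a gene was asked of all 497 genes with at least 2 tested ends. *tim* is among them only because its short end passed the filter on low values, through 5 libraries at 18°C and 1 at 25°C. Its ranks and calls below are thus not independent of the high *tim-sc* level at 18°C, and describe that level again. The log2 changes of the 2 *tim* ends at 18°C against 25°C lay 3.41 apart, the widest gap among the 497 genes, whose median gap was 0.35. At 29°C against 18°C the gap was 5.36, again the widest (median 0.42), and at 29°C against 25°C it was 1.95, rank 4 (median 0.29). With an added value of 0.25, *tim-sc* changed by -6.84 and -2.92 relative to *tim-L/M/cold* in these comparisons (log2 scale). In limma's diffSplice test, which weighs a gap against the spread of the libraries, *tim* passed at 18°C against 25°C (adjusted p = 0.0273, rank 7, with 1.41% of genes called) and at 29°C against 18°C (adjusted p = 6.71e-05, rank 4, with 8.85% called). It did not pass at 29°C against 25°C (adjusted p = 0.559, with 0.201% called). The 18°C against 25°C call was lost when the library of ZT3, ZT7, ZT11 or ZT19 at 18°C, or of ZT15 or ZT23 at 25°C, was left out (adjusted p = 0.0590, 0.0613, 0.0581, 0.0602, 0.1001 and 0.0816), with gaps of 3.34, 3.53, 3.40, 3.28, 3.13 and 3.02.

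**Figure D4:**
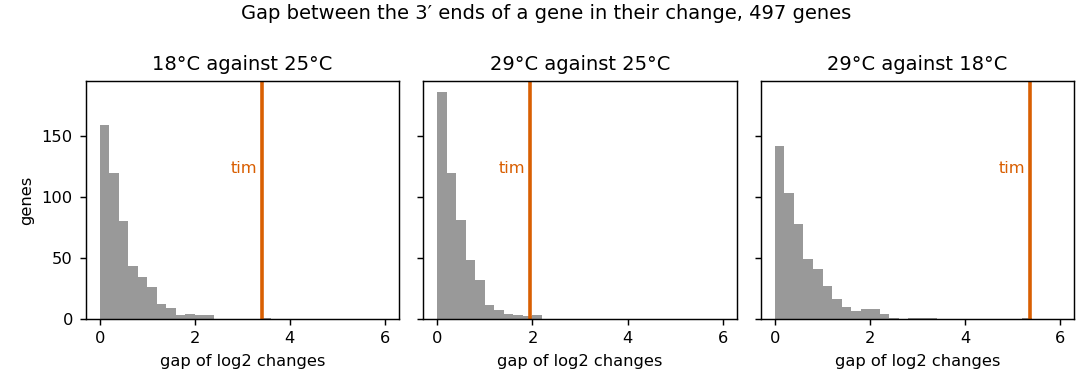
Histograms over 497 genes of the gap between the largest and the smallest log2 change among the tested 3′ ends of a gene, for 18°C against 25°C, 29°C against 25°C and 29°C against 18°C. The line marks *tim*, at 3.41, 1.95 and 5.36.

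Of the other clock genes, 4 had several tested ends. *CkIIbeta*, the regulatory subunit of casein kinase 2, which phosphorylates PER and TIM, had 6 ends and a gap of 2.83 at 29°C against 18°C (diffSplice, adjusted p = 0.0120). It did not pass at 18°C against 25°C (gap 2.16, adjusted p = 0.258). *Pdp1*, *sgg* and *wdb* had gaps of 0.17 to 0.66 and passed in none of the 3 comparisons.

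The long end cycled over the day at 18°C and 25°C. A cosine of 24 h fitted to its log2 signal had a peak-to-trough height of 2.51 at 18°C (limma, adjusted p = 0.00171, rank 4 of 8846 rows, of which 0.136% were called) and 2.84 at 25°C (adjusted p = 0.00015, rank 5, with 0.170% called). At 29°C the height was 1.70 and the test was not passed (adjusted p = 0.109, rank 18, with 0.102% called). The highest library was that of ZT15 at each temperature, and the lowest was that of ZT23 at 18°C and of ZT3 at 25°C and 29°C. The highest value was 6.68 times the lowest at 18°C, 8.25 times at 25°C and 3.08 times at 29°C. The call at 18°C was lost without the 18°C library of ZT23 (adjusted p = 0.112) and that at 25°C without the 25°C library of ZT3 (adjusted p = 0.0588), which in each case is the trough.

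The fitted peak fell at 11.8 h in the 18°C libraries and at 15.4 h in those of both warmer temperatures. A test of whether the fitted rhythms differ between the temperatures gave F = 7.84 (limma, unadjusted p = 0.000312, rank 11 of 8846) and an adjusted p of 0.251. No row was called by this test (0.00%), while 434 rows had an unadjusted p under 0.05 (4.91%). For 18°C against 25°C alone the adjusted p was 0.225 (rank 8), with 1 row called (0.0113%). It reached 0.0455 without the 18°C library of ZT11.

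No difference of the long end between darkness and light passed the test over the 3 temperatures. The split falls at 12 h, close to the fitted peak of 11.8 h at 18°C, so it could show little of the rhythm there. The mean *tim-L/M/cold* signal in darkness and in light was 212 ± 194 and 234 ± 104 at 18°C, 381 ± 153 and 214 ± 194 at 25°C, and 362 ± 93 and 254 ± 158 at 29°C (SD, n = 3 each). The dark-minus-light log2 difference was -0.44, 1.16 and 0.65 at 18, 25 and 29°C, and 0.46 over the 3 temperatures (exact permutation within temperature, 8000 arrangements, two-sided p = 0.336).

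At 18°C the short end rose and fell broadly with the long one, although their ratio ranged from 8.51% at ZT23 to 29.6% at ZT19. Both were lowest at ZT23 and highest at ZT15, and the highest *tim-sc* value was 19.9 times the lowest, against 6.68 times for the long end. Across the 6 libraries the log2 signals had a Pearson r of 0.904 (exact permutation p = 0.00694, adjusted over both coefficients 0.0139) and a Spearman rho of 0.943 (exact permutation p = 0.0167). These coefficients rest in part on the extremes, since r was 0.651 over the other 4 libraries once ZT15 and ZT23 were left out. The cosine fitted to *tim-sc* had a height of 3.02 with its peak at 12.7 h but did not pass (limma, adjusted p = 0.716). A 24 h course of the ratio of the ends did not pass either (height 0.90 on the log2 scale, exact permutation of the 6 times p = 0.6, smallest possible p 0.0167).

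The rest of the clock was read from a list of 18 genes, 17 of which had a tested row. *timeout*, the relative of *tim*, was at or below 3 reads in 5, 5 and 6 of the 6 libraries at 18, 25 and 29°C. By limma 0 of the 17 were called at 18°C against 25°C, beside 10.8% of all rows, and 0 at 29°C against 25°C, beside 2.06%. The first count was 1 without the 25°C library of ZT3. At 29°C against 18°C 2 of 17 were called, beside 23.1% of all rows. This count was 1 when the library of ZT3, ZT7, ZT11, ZT15 or ZT19 at 18°C, of ZT11 at 25°C, or of ZT3, ZT11, ZT15 or ZT19 at 29°C was left out, and 3 without that of ZT15 at 25°C. The median log2 change of the 17 was -0.14 at 18°C against 25°C, -0.00018 at 29°C against 25°C and 0.10 at 29°C against 18°C, beside -0.015, 0.024 and 0.052 over all tested rows.

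The 2 called genes act on and beside TIM. *sgg*, the kinase shaggy that phosphorylates TIM, had a signal of 190 ± 40 at 29°C and 269 ± 20 at 18°C (SD, n = 6 each; log2 change -0.52, limma, adjusted p = 0.00885). These values are of its highest end only. The log2 changes of the 3 tested *sgg* ends spanned 0.66 in this comparison (diffSplice, adjusted p = 0.439). *Pdf*, the neuropeptide through which clock neurons signal to each other, had 103 ± 21 at 29°C and 72.2 ± 19.8 at 18°C (log2 change 0.51, adjusted p = 0.0452). The ranges of *sgg* touched narrowly, with 149 to 252 at 29°C and 251 to 302 at 18°C. Those of *Pdf* overlapped, with 71.7 to 135 at 29°C and 58.3 to 111 at 18°C.

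The genes of light input were not called at any comparison. *cry*, the blue light receptor that binds TIM, averaged 50.7 ± 13.9, 61.0 ± 25.4 and 49.8 ± 14.2 at 18, 25 and 29°C, and *jet*, a ubiquitin ligase subunit through which TIM is degraded in light, averaged 32.0 ± 14.0, 46.4 ± 20.7 and 43.4 ± 13.2. *per*, the partner of *tim*, averaged 52.6 ± 29.9, 50.4 ± 40.8 and 32.9 ± 17.9. The activator *Clk* was low throughout, with means of 8.25, 8.06 and 10.8 and 3, 2 and 1 libraries at or below 3 reads, while its partner *cyc* averaged 82.0, 86.5 and 88.3. The kinase *dco*, the phosphatase subunits *mts*, *tws* and *wdb* and the ubiquitin ligase subunit *slmb* were not called either.

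The transcripts that cycle with *tim* were asked for by the same cosine fit. *vri*, a repressor of *Clk* that is itself activated by CLOCK and CYCLE, passed at 25°C (height 3.41, peak 13.9 h, limma, adjusted p = 8.24e-06) and at 29°C (2.03, 13.9 h, adjusted p = 0.0323), and at 18°C it had a height of 1.69 and a peak at 10.6 h (adjusted p = 0.113). *Pdp1*, an activator of *Clk*, passed at 25°C (height 1.56, peak 16.11 h, adjusted p = 0.0219). In all, 0 of 17 genes passed at 18°C, 2 at 25°C and 1 at 29°C, beside 0.136%, 0.170% and 0.102% of all rows. The 25°C count was 1 without the 25°C library of ZT3, ZT7 or ZT15, and the 29°C count was 0 without the 29°C library of ZT3, ZT11, ZT15 or ZT23. *per* passed at no temperature, with fitted peaks at 9.59, 13.4 and 15.8 h at 18, 25 and 29°C (adjusted p = 0.412, 0.263 and 0.9997).

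The highest library of *per* was that of ZT7 at 18°C, at 103, and of ZT15 at 25°C and 29°C, at 130 and 66.9. For *vri* it was ZT11 at 18°C, at 213, and ZT15 at 25°C and 29°C, at 233 and 271. *tim-L/M/cold* had its highest library at ZT15 at each temperature. Its fitted peak was nevertheless earlier at 18°C than at 25°C (11.8 and 15.4 h), as were those of *vri* (10.6 and 13.9 h) and *per* (9.59 and 13.4 h). For 18°C against 25°C, the difference of rhythm passed for none of *tim-L/M/cold* (limma, adjusted p = 0.225), *vri* (0.0959) and *per* (0.799).

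**Figure D5:**
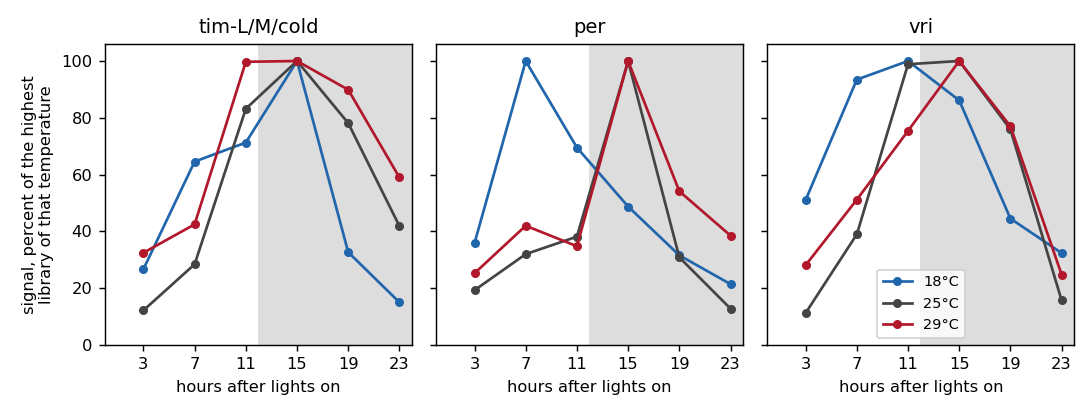
Signal of *tim-L/M/cold*, *per* and *vri* as percent of the highest library of the same temperature, against hours after lights on. Each point is 1 library, colours are temperatures and grey marks darkness. At 18°C *per* is highest at ZT7 and *vri* at ZT11, while *tim-L/M/cold* is highest at ZT15 at all 3 temperatures.

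Genes whose pattern over the 18 libraries was most like that of each end are given as a description, since the points share libraries, temperature and time of day. For *tim-L/M/cold* the highest Pearson r of log2 signal was that of *CG3328* (0.82), followed by *vri* (0.79), *lqfR* (0.76), *ebd1* (0.75), *Ubpy* (0.75), *CG30051* (0.75), *CG11241* (0.73) and *CG14057* (0.73), where the middle 90% of tested rows lay between -0.43 and 0.45. *CG3328* and *vri* kept an r of at least 0.77 within each temperature. For *tim-sc* the list was led by *PMCA* (0.91), a calcium pump of the plasma membrane, and *CG14945* (0.90), followed by the muscle genes *Mhc* (0.90), *Mlc2* (0.89) and *up* (0.88), the kinase gene *CaMKI* (0.87), the odorant-binding protein gene *Obp99a* (0.87) and *CG6429* (0.87). The middle 90% of rows here lay between -0.66 and 0.68, and all 8 genes had means that descended in the order 18°C, 25°C, 29°C. Within 18°C the r was -0.08 for *Obp99a* and 0.40 for *Mhc*, and it ran from 0.53 (*CG6429*) to 0.91 (*PMCA*) for the other genes. At 29°C *tim-sc* was 0 in 4 of 6 libraries. An r at that temperature, such as -0.80 for *Mlc2* (0.62 and 0.81 at 18 and 25°C), therefore says little. The lists of the 2 ends share no gene, but lists this short, drawn from 8846 tested rows, would seldom share one in any case.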

How the data were processed

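Heads from 18 libraries were analysed. The authors deposited 1 table of signal values: reads per annotated transcript divided by 1 constant per library. The submitters' processing notes name TopHat, Bowtie2, Cufflinks and dm3; which tool made these values is not given in the sources used here. Between 96.8% and 97.7% of the nonzero values were whole multiples of the worth of 1 read, within 0.01. Identical rows of a gene were merged, as were those differing by under 10%, leaving 13790 rows above 0. Rows with a signal of at least 10 in at least 6 libraries (8846) entered limma 3.58.1 (R 4.3.3) on log2(signal + 1), with the intensity trend and Benjamini-Hochberg adjustment. A further row without a gene name carries the *tim-L/M/cold* values and was not counted. The fit was tested on simulated data. Exact permutations used scipy 1.17.1. The fifth time point is 18 h in the titles and 19 h in the descriptions and columns; ZT19 was used. Alternatives were the added value (0.25, 4), scaling, filter, time point block, ZT18 and leaving out each library. Named genes were all *tim* rows, the clock list by each gene's highest row, and the 8 most correlated rows per end. Members and lists were chosen with earlier results of these data known.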

Additional observations from a re-analysis of the deposited data

Results flagged for a closer look

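Each group of 6 libraries was checked for a value whose gap to its nearest neighbour takes more of the group's range than Dixon's 95% critical value allows, which chance meets in about 1 of 20 groups. None of the 12 *tim* groups did. Of 63 groups, 4 did, where about 3.15 would be met by chance: *per* at 25°C, where ZT15 stood at 130 above the others at 16.6 to 49.5 (gap 0.709 of the range); *CkIIalpha* at 18°C, where ZT23 stood at 335 above 196 to 244 (0.654); *wdb* at 29°C, where ZT15 stood at 81.8 above 56.2 to 64.6 (0.672); and *Pdf* at 18°C, where ZT23 stood at 111 above 58.3 to 70.0 (0.779).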

How the results depend on the processing

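Of 487 alternative values of 28 results, 469 kept their direction and their side of the threshold. Part of this count was fixed in advance. Leaving out a library of a temperature outside a comparison cannot change a ratio comparison or move a log2 change. The higher *tim-sc* level at 18°C than at 25°C, and its ratio, were kept under all alternatives run. The lower *tim-sc* level at 29°C than at 25°C passed by exact permutation (-1.71, adjusted over the comparisons p = 0.0303) but not by exact exchange within time points, the replicate block (p = 0.0625), and its ratio was also lost with that block (-1.68, p = 0.0625). With an added value of 0.25 the gap of the *tim* ends at 18°C against 25°C was 3.92 and did not pass (adjusted p = 0.0592). Leaving out 1 library gave gaps of 3.02 to 3.65, a change of *tim-L/M/cold* at 29°C against 25°C of -0.14 to 0.46, and rhythm heights of 2.15 to 3.14 at 18°C, 2.19 to 3.24 at 25°C and 1.51 to 1.99 at 29°C, where the call appeared without the 18°C library of ZT11 (1.70, adjusted p = 0.0424). Scaling by library size called 1 clock gene at 18°C against 25°C, 1 as rhythmic at 25°C and 0 at 29°C, and ZT18 called 1 at 18°C. The causes were not tested. Library-size scaling moved the median of all rows by -0.17, 0.017 and 0.19. Over all rows, libraries of the same time point did not deviate together (median r 0.025, 2 of 18 pairs over 0.1), so the time point was not used as a pairing, although *tim* itself varies with the hour (SE of *tim-L/M/cold* 0.26 with the block and 0.42 without). In all, 1032, 237 and 2120 rows were called with the block and 959, 182 and 2044 without it. At 29°C against 18°C the block lost *Pdf* (adjusted p = 0.0549) and gained *Pdp1* (0.0366), and it changed no call of limma on *tim*. *tim-sc* at 25°C and 29°C is limited by depth.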
